A study of Mus musculus with 6 samples.

Results

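The proteasome subunit genes of mouse leukaemic bone marrow cells were compared between cells that carried a guide RNA against Clec12a and cells that carried a control guide. The members were every gene of the deposited table named Psma, Psmb, Psmc or Psmd with a number, together with Psme1, Psme2, Psme3 and Psme4, leaving out the immunoproteasome genes Psmb8, Psmb9 and Psmb10. Of 40 such genes, 38 reached an FPKM (a fragment count divided by transcript length and by library depth) of 1 or more in at least 3 of 6 libraries, out of 9830 genes that did so among 21515 in the table. The 2 genes below that level were Psma8 and Psmb11, which encode subunits known from the testis and the thymus, and the highest FPKM of either in any library was 0.0735. The rule used names and levels, and no difference between the groups.

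Knockout libraries came from NUP98-NSD1 NRASG12D bone marrow cells of C57BL/6 origin that received the T44 guide against Clec12a (3 libraries, knockout replicates 1, 4 and 5), and the controls from the same kind of cells that received a guide against lacZ, a bacterial gene (3 libraries, control replicates 6, 8 and 9). Both groups share the leukaemia fusion NUP98-NSD1, the activated RAS protein, and a lentiviral vector that encodes Cas9 and dTomato. Both were also kept for 48 hours in 15% serum with the cytokines hIL-6 (10 ng/mL), mIL-3 (6 ng/mL) and mSCF (20 ng/mL). Cells were sorted singly after transduction and then expanded, so a library may stand for 1 clone, and differences between clones cannot be told apart from differences between guides when a group has 3 libraries. The p-values measure only the spread between these libraries.

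The proteasome is the barrel-shaped protease that degrades ubiquitin-tagged proteins in the cytosol and nucleus. Its core, the 20S particle, stacks outer rings of alpha subunits, which gate the entrance, on inner rings of beta subunits, of which Psmb5, Psmb6 and Psmb7 carry the cutting sites. The 19S cap recognises ubiquitin, removes it and unfolds the substrate: its base holds the Psmc ATPases and the scaffold subunits Psmd1 and Psmd2, and its lid holds the deubiquitinase Psmd14. The Psme proteins are alternative caps that open the core without ubiquitin. Proteasome inhibitors are drugs used in blood cancers such as myeloma, and subunit genes are known to be raised together by the transcription factor NRF1 (Nfe2l1) when proteasome activity is short.

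Clec12a was itself at 169.7, 129 and 94.5 FPKM in knockout replicates 1, 4 and 5 and at 157, 246 and 280.1 FPKM in control replicates 6, 8 and 9, so the groups overlapped (log2 fold change -0.79, SE 0.29, adjusted p = 0.130). The level of this transcript therefore does not check the labels, and an edit of the coding sequence need not lower it. Total FPKM was 590211 to 699113 in the knockout and 534439.9 to 554534 in the control group, and estimated depth over all 6 ran from 33700000 to 61000000 fragments. Knockout replicate 4 stood apart: relative to the mean of each gene over the libraries, with genes split by transcript length into 4 equal groups, the group of shortest transcripts had a median of 0.41 and the longest a median of -0.35 on the log2 scale there, against 0.039 or less and -0.10 or more in the other knockout libraries. The labels give the tissue as bone marrow. The summed level of 10 markers of granulocyte-monocyte progenitors was 3768 to 8849 FPKM in knockout and 2368 to 7023 FPKM in control libraries. Most of that sum is Elane, Prtn3 and Ctsg, granule protease genes, and 8 of the 10 reached 1 FPKM in every library. Mpo, the myeloperoxidase gene, was at 0.289, 1.2016 and 9.36 FPKM in knockout and 455, 737 and 10.2 FPKM in control libraries, so every knockout library was lower. Kit, the stem cell factor receptor, was at 0.736, 1.18 and 6.66 FPKM in knockout and 27.6, 8.03 and 0.715 FPKM in control libraries, with overlap. These markers differed between libraries of both groups, and their part in the subunit results was not tested. Markers of other cells were low: 8 erythroid and megakaryocyte genes summed to at most 3.66 FPKM in any library, 8 lymphocyte genes to 0.350 and 5 stromal genes to 0.350, while 5 mast cell and basophil genes summed to 2.04 to 3.11 in knockout and 2.05 to 12.7 FPKM in control libraries. In bulk RNA, fewer cells of a kind and less RNA per cell cannot be told apart.

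Proteasome subunits were abundant in every library. The median level over the 38 genes, each averaged over 6 libraries, was 173 FPKM, against 16.3 FPKM over all genes tested, and 26 of 38 lay above the level that 10% of tested genes exceed. Together the 38 genes made up 1.07% to 1.16% of total FPKM in knockout libraries and 1.03% to 1.16% in controls. Although the rings and the cap are assembled with 1 copy of each subunit per ring or cap, the transcripts were uneven: within the alpha ring Psma7 was highest (440.1 FPKM) and Psma2 lowest (109 FPKM), a ratio of 4.05. Within the beta ring Psmb6 was highest (371 FPKM) and Psmb7 lowest (118 FPKM), a ratio of 3.15. The 6 base ATPases ran from Psmc6 at 103 FPKM to Psmc4 at 201 FPKM, a ratio of 1.95, and Psmc4 and Psmc1 (200.3 FPKM) could not be ordered beyond the spread of their libraries. The lid ran from Psmd3 at 83.7 to Psmd11 at 229.7 FPKM. The lowest member was Psme4, which encodes the cap PA200, at 4.52 FPKM.

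**Figure D1:**
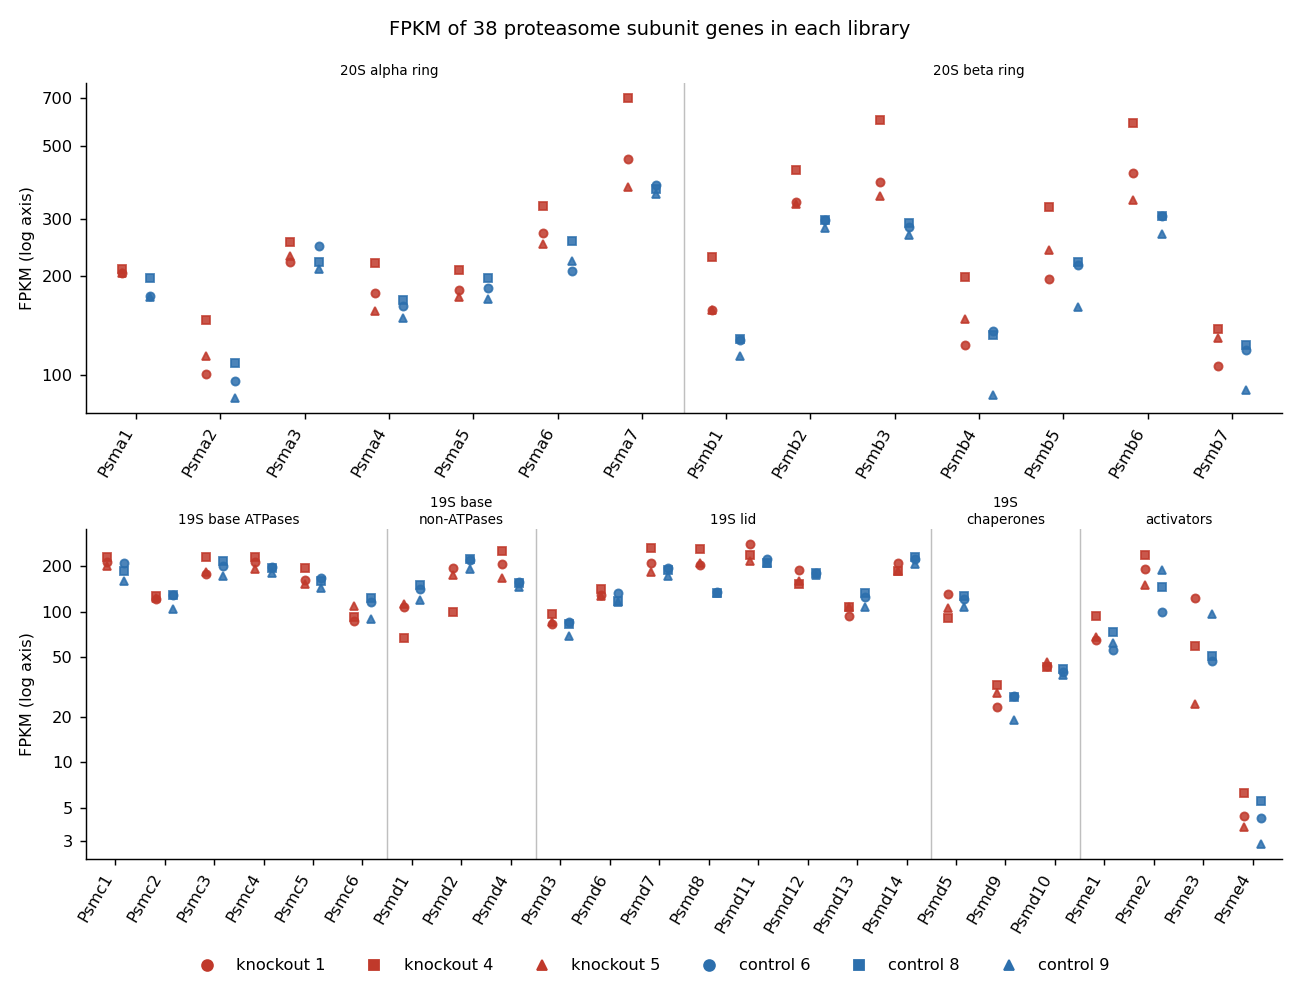
FPKM (log axis) of 38 proteasome subunit genes, grouped by subcomplex, in 3 knockout libraries (red, left) and 3 control libraries (blue, right), 1 point per library. Most genes lie above 100 FPKM, Psme4 is far below the rest, and knockout replicate 4 (red squares) is the highest library for all 14 genes of the upper panel.

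No subunit gene differed between knockout and control libraries by the test. With limma on log2(FPKM + 1) and a Benjamini-Hochberg adjusted p under 0.05 over 9830 genes, 0 of 38 subunits passed in either direction, where 1.9% of all genes did (1.38% higher and 0.519% lower). At an unadjusted p under 0.05 there were 5 (Psmd8, Psmb3, Psmb1 and Psmb6 higher, Psmd1 lower), or 13.2% of 38 against 27.9% of all genes (12% higher and 15.9% lower). The 3 knockout and 3 control libraries did not overlap for 10 subunits, 8 of them higher and 2 lower in knockout, or 26.3% against 36.3% of all genes. With array weights, which count some libraries for less, 8 of 38 passed, where 42.3% of all genes did.

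The subunits leaned to higher values than all genes as deposited. Scaling by median ratios or to equal totals kept that lean. It was smaller with quantile normalization and nearly absent once length and GC trends were taken out. Of 38 log2 fold changes, 30 were above 0, with a median of 0.18, against 4522 of 9830, or 46%, and a median of -0.055 over all genes. With scaling by median ratios the median was 0.24 with 30 above 0. With libraries scaled to equal totals the median was -0.019 with 16 above 0, with quantile normalization 0.025 with 22 above 0, and once length and GC trends were taken out of each library -0.044 with 17 above 0. Without knockout replicate 4 it was 0.092, and without control replicate 9 it was 0.12, each with 27 above 0. Under equal totals the median of all genes was -0.24 with 3271 of 9830 above 0, so the subunits then lay above it. The median of all genes was -0.0014 with scaling by median ratios and -0.036 with quantile normalization. With length and GC trends taken out, the median of all genes was -0.055 with 4433 of 9820 above 0. The subunits then lay near all genes. The standard error of a subunit had a median of 0.20, so the 95% interval reached 1.36-fold on either side at the median, and for 31 of 38 it lay within 2-fold either way. Small differences were not detectable with 3 against 3 libraries. The interval is not adjusted for the 9830 genes tested, so differences larger than its half-width could also miss the threshold. Psmd8, at a log2 fold change of 0.73, had a limma adjusted p of 0.0692.

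**Figure D2:**
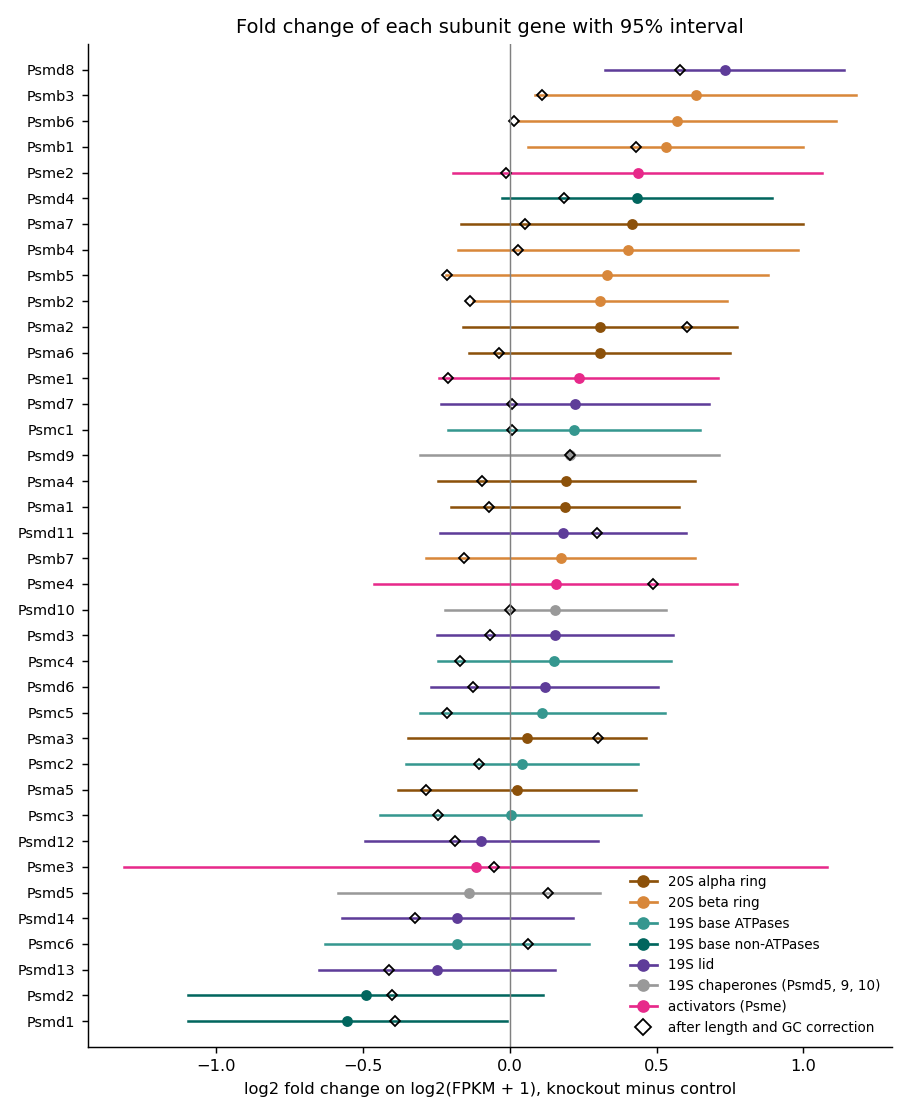
Log2 fold change of each subunit gene, knockout minus control, with its 95% interval (line) from limma, coloured by subcomplex, and the same with length and GC trends taken out (open diamonds). Psmd8 is highest at 0.73 and Psmd1 lowest at -0.55, and most diamonds of the 20S genes lie left of their points.

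The alpha subunits, which form the gated outer ring of the core, had small differences. All 7 had positive log2 fold changes, from 0.025 for Psma5 to 0.42 for Psma7, with a median of 0.19, and 3 of 7 were above 0 after the length and GC correction. Psma7 was at 456, 699.8 and 376 FPKM in knockout replicates 1, 4 and 5 and at 380.3, 370.4 and 358 FPKM in control replicates 6, 8 and 9 (log2 fold change 0.42, SE 0.26, adjusted p = 0.306). Knockout replicate 4 was far above the other 5 libraries, while knockout replicate 5 lay inside the control range. Psma1 was the only alpha gene whose groups did not overlap, at 204, 211 and 204 FPKM in knockout and 174, 197 and 173 FPKM in control libraries (log2 fold change 0.19, SE 0.17, adjusted p = 0.480). Every knockout library was above every control library, as for 14.5% of all genes, and the corrected value of Psma1 was -0.071. Psma2, the lowest of the ring, was at 101, 147 and 114 FPKM in knockout and 95.7, 109 and 85.1 FPKM in control libraries and was the alpha gene with the largest corrected value, 0.60 (adjusted p = 0.153). Psma3 and Psma5 averaged 236 ± 17.2 and 188 ± 18.4 FPKM in knockout libraries, and 227 ± 19.001 and 184 ± 13.9 FPKM in controls (SD, n = 3 each).

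The beta subunits, which line the cutting chamber, had a larger median difference than the alpha subunits, though none passed. All 7 were above 0, with a median of 0.40, and for 4 of 7 (Psmb1, Psmb2, Psmb3 and Psmb6) every knockout library was above every control library, where 14.5% of all genes had that order. After the length and GC correction the beta median was 0.016, with 4 of 7 above 0. Psmb3, a structural subunit, was at 388, 602 and 352 FPKM in knockout and 283, 291 and 267 FPKM in control libraries (log2 fold change 0.63, SE 0.24, adjusted p = 0.139). Psmb1, another structural subunit, was at 158, 229 and 158 FPKM in knockout and 127, 129 and 114 FPKM in control libraries (log2 fold change 0.53, SE 0.21, adjusted p = 0.143). In both genes the controls lay close together and knockout replicate 4 was well above the other knockout libraries. After that correction Psmb3 stood at 0.11 (adjusted p = 0.663) and Psmb1 at 0.43 (adjusted p = 0.180). Without knockout replicate 4 the log2 fold change was 0.40 for Psmb3 and 0.35 for Psmb1.

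None of the 3 subunits with a cutting site passed, and their intervals overlapped one another. Psmb6, with the caspase-like site, was at 415, 587 and 341 FPKM in knockout replicates 1, 4 and 5 and 307, 307 and 269 FPKM in control replicates 6, 8 and 9 (log2 fold change 0.57, SE 0.24, adjusted p = 0.164; 95% interval 0.027 to 1.11). Its groups did not overlap, and its corrected value was 0.016 (adjusted p = 0.958). Psmb5, with the chymotrypsin-like site and the target of the drug bortezomib, was at 197, 325 and 241 FPKM in knockout and 216, 222 and 161 FPKM in control libraries (log2 fold change 0.33, SE 0.24, adjusted p = 0.380; 95% interval -0.22 to 0.88). Psmb7, with the trypsin-like site, was at 107, 138 and 129 FPKM in knockout and 119, 123 and 90.0 FPKM in control libraries (log2 fold change 0.17, SE 0.20, adjusted p = 0.584; 95% interval -0.29 to 0.63). For Psmb5 and Psmb7 knockout replicate 1 lay within the control range, control replicate 9 was the lowest of all libraries, and the corrected values were below 0, at -0.21 and -0.15. Without knockout replicate 4 the log2 fold change was 0.36 for Psmb6, 0.14 for Psmb5 and 0.10 for Psmb7. Without knockout replicate 1 it was 0.50 for Psmb5 and 0.28 for Psmb7, and without control replicate 9 it was 0.18 for Psmb5 and 0.032 for Psmb7. Psmb7 shares 11.8% of its exon bases with Nek6 on the opposite strand, and the strand setting of the counting is not stated in these sources.

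The bases just before the start of Psmb5, Psmb6 and Psmd8 are shown because NRF1 is known to act on subunit promoters through a motif of the form TGACNNNGC, and because Psmd8 had the largest fold change. The sequences are from RefSeq (GRCm38.p6), run 5′ to 3′ on the gene's strand, and end 1 base before the RefSeq start, and capitals mark TGACNNNGC read on either strand. GENCODE, used here for gene coordinates, places the starts of Psmb5 and Psmd8 further upstream, so the last 27 bases shown for Psmb5 and the last 28 for Psmd8 lie inside the GENCODE genes.
Psmb5, chr14:54617996-54618095, minus strand: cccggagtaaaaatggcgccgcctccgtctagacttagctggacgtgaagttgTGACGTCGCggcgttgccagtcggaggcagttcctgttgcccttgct
Psmb6, chr11:70525257-70525356, plus strand: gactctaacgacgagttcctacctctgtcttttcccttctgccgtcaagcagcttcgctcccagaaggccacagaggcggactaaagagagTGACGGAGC
Psmd8, chr7:29180674-29180773, minus strand: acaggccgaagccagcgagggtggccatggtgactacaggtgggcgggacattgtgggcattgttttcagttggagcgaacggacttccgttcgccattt
In the 250 bases before the start, the motif TGACNNNGC stood on either strand in 5 of 32 subunit genes with a promoter entry (Psmb5, Psmb6, Psmc6, Psmd9 and Psmd12), or 15.6%, against 14.0% of 7917 tested genes and 10.2% of all 32851 promoter entries. The motif GGGCGG stood in 20 of 32, or 62.5%, against 64.5% of tested genes, and CCAAT in 12 of 32, or 37.5%, against 41.6%. In Psmd8 the only match of the 3 motifs was GGGCGG, at base -59. The shares of subunit genes were thus near those of tested genes for each of the 3 motifs. Psmb1, Psmb2, Psmb7, Psmc3, Psmd3 and Psmd7 were not matched to an entry.

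The base ATPases, the ring that unfolds the substrate and threads it into the core, had small differences. Their log2 fold changes ran from -0.18 for Psmc6 to 0.22 for Psmc1, with a median of 0.077, and the groups overlapped for all 6. Psmc3 averaged 198 ± 29.7 FPKM in knockout and 196 ± 21.9 FPKM in control libraries and Psmc2 averaged 123 ± 2.96 FPKM in knockout and 120.4 ± 13.8 FPKM in control libraries (SD, n = 3 each). Psmc4, the highest, was at 213, 229.9 and 193 FPKM in knockout and 198, 194 and 179.6 FPKM in control libraries, and Psmc6, the lowest, at 87.0, 92.8 and 109.8 FPKM in knockout and 116, 124 and 89.7 FPKM in control libraries. Psmc1 and Psmc5 averaged 215 ± 15.6 and 170.1 ± 22.4 FPKM in knockout libraries, and 185 ± 26.3 and 157 ± 11.6 FPKM in controls. Adjusted p ran from 0.453 to 0.992 over the 6.

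The non-ATPase subunits of the base pointed in different directions. Psmd1, a scaffold of the base, was at 107, 66.4 and 113 FPKM in knockout replicates 1, 4 and 5 and 142, 150.1 and 119.9 FPKM in control replicates 6, 8 and 9 (log2 fold change -0.55, SE 0.24, adjusted p = 0.174). Every knockout library was below every control library, as for 21.8% of all genes, with knockout replicate 4 the lowest. Psmd2, the second scaffold, was at 195, 99.3 and 175 FPKM in knockout and 221, 222 and 193 FPKM in control libraries (log2 fold change -0.49, SE 0.27, adjusted p = 0.254). Knockout replicate 4 was far below the other 5 libraries, while knockout replicate 1 lay within the control range. Without knockout replicate 4 the log2 fold change was -0.31 (adjusted p = 0.293) for Psmd1 and -0.19 (adjusted p = 0.483) for Psmd2. Psmd4, the ubiquitin receptor of the base, was at 207, 251 and 167 FPKM in knockout and 156, 155 and 145 FPKM in control libraries, with no overlap (log2 fold change 0.43, SE 0.20, adjusted p = 0.195). A processed pseudogene, Gm5422, matches the Psmd2 transcript at 96.4% identity over 92.1% of its length, so the level of Psmd2 is uncertain where counting splits reads between copies.

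The lid held the member nearest to the threshold. Psmd8, a lid subunit (chromosome 7, 29174188 to 29180701, GRCm38), was at 203, 259 and 211 FPKM in knockout replicates 1, 4 and 5 and 134.2, 133.7 and 133.7 FPKM in control replicates 6, 8 and 9. All 3 knockout libraries lay well above the controls, which lay within less than 1 FPKM of one another, and the knockout mean was 1.68 times that of the controls (224 ± 30.3 FPKM in knockout and 134 ± 0.306 FPKM in control libraries, SD, n = 3 each). The limma estimate was a log2 fold change of 0.73 (SE 0.18, 95% interval 0.32 to 1.14; adjusted p = 0.0692), which misses 0.05 and passes the looser limit of 0.1, as do 11.3% of all genes. After the length and GC correction it was 0.58 (adjusted p = 0.0777), and it was the subunit with the lowest adjusted p in both fits. No near-identical copy or exon overlap was found for Psmd8. Of the 38 subunit genes, 12 have a near-identical match in another gene and 10 share exon bases with another gene, which makes their levels less certain. For Psmb7, Psmd1 and Psmd13 the match is the overlapping gene itself (Nek6, Gm21972 and Sirt3) and not a separate copy. Pseudogenes match Psmb3 over 80.7%, Psmb5 over 88.5% and Psmc1 over 82.1% of the transcript.

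The other lid subunits differed little. Psmd14, the deubiquitinase of the lid, was at 211, 187 and 186 FPKM in knockout and 224, 229 and 208 FPKM in control libraries (log2 fold change -0.18, SE 0.17, adjusted p = 0.508), with knockout replicate 1 inside the control range. Psmd13 was at 93.7, 107 and 107 FPKM in knockout and 126, 133 and 108 FPKM in control libraries (log2 fold change -0.25, SE 0.18, adjusted p = 0.372). Every knockout library was below the controls, but the highest of them by less than 1 FPKM, and 10.1% of its exon bases are shared with Sirt3 on the opposite strand. Psmd11, a lid scaffold and the highest lid gene, was at 280.2, 238 and 216 FPKM in knockout and 223, 211 and 209 FPKM in control libraries. Psmd3, the lowest, was at 82.8, 96.2 and 85.4 FPKM in knockout and 85.5, 83.0 and 69.3 FPKM in control libraries. Psmd6, Psmd7 and Psmd12 had log2 fold changes of 0.12, 0.22 and -0.10. Over all 8 lid genes the median was 0.14, with 5 above 0, and with 3 above 0 after the correction.

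Psmd5, Psmd9 and Psmd10 are not subunits of the finished particle but chaperones that hold base modules during assembly. Psmd10, also called gankyrin, was the steadiest of the 38, with a coefficient of variation of 7.09% over the 6 libraries: 43.6, 43.2 and 46.1 FPKM in knockout and 39.7, 41.5 and 37.8 FPKM in control libraries, without overlap (log2 fold change 0.16, SE 0.16, adjusted p = 0.544). Psmd5 averaged 109 ± 20.1 FPKM in knockout and 119 ± 10.2 FPKM in control libraries, and Psmd9 averaged 28.4 ± 4.69 FPKM in knockout and 24.6 ± 4.77 FPKM in control libraries (SD, n = 3 each). Psmd9 shares 25.5% of its exon bases with a non-coding gene on the opposite strand.

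Among the 4 activators 0 passed, and 1 of them varied widely between libraries. Psme3, the nuclear cap PA28 gamma, was at 123, 59.2 and 24.6 FPKM in knockout replicates 1, 4 and 5 and 47.2, 50.7 and 96.5 FPKM in control replicates 6, 8 and 9 (log2 fold change -0.11, SE 0.53, adjusted p = 0.900; 95% interval -1.31 to 1.08). Its coefficient of variation of 54.2% was the largest of the 38, knockout libraries held both the highest and the lowest level, and the sign of its difference turned when knockout replicate 5 or control replicate 9 was left out. Psme1 and Psme2 encode the interferon-inducible cap PA28, and lie close together on chromosome 14. Psme1 was at 64.5, 93.4 and 68.3 FPKM in knockout and 55.6, 72.8 and 61.8 FPKM in control libraries (log2 fold change 0.24, SE 0.21, adjusted p = 0.468). Psme2 was at 192, 239 and 150.3 FPKM in knockout and 100.2, 146 and 189 FPKM in control libraries (log2 fold change 0.44, SE 0.28, adjusted p = 0.319), so control replicate 9 reached the knockout range. Without knockout replicate 4 the log2 fold change was 0.073 for Psme1 and 0.27 for Psme2, and without control replicate 6 it was 0.15 for Psme1 and 0.20 for Psme2. Psme2b, a copy of Psme2 at 99.4% identity over 82.5% of the transcript, was at 16.4, 21.0 and 14.0 FPKM in knockout and 9.44, 12.1 and 16.5 FPKM in control libraries, and reads of the copies may have been split. Psme4 was at 4.45, 6.24 and 3.71 FPKM in knockout and 4.29, 5.52 and 2.90 FPKM in control libraries (log2 fold change 0.16, SE 0.27, adjusted p = 0.723).

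Summed over its 14 genes, the core averaged 3706 ± 749 FPKM in knockout and 2866 ± 202 FPKM in control libraries (SD, n = 3 each). The 17 subunits of the cap averaged 2848 ± 142 FPKM in knockout and 2716 ± 191 FPKM in control libraries. The log2 ratio of the summed core, knockout over control, was 0.37, and 0.19 without knockout replicate 4. The ratio of core to cap, which no scaling of a library can alter and which was computed after the values had been seen, was 1.16, 1.54 and 1.19 in knockout replicates 1, 4 and 5 and 1.03, 1.08 and 1.06 in control replicates 6, 8 and 9. The groups did not overlap, knockout replicate 4 was far above the rest, and the controls lay within a narrow range. The ratio of beta to alpha subunits was 1.07, 1.21 and 1.13 in knockout and 1.02, 0.987 and 0.927 in control libraries, also without overlap. No test is given for these sums, since the members were chosen as a group.

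Transcript length and knockout replicate 4 moved with these differences. The median transcript was 1162 nt for core subunits, 1819 nt for cap subunits and 3004 nt for all tested genes. Over all genes the median log2 fold change was 0.28 in the shortest of the 4 groups (180 to 1906 nt), which held 23 subunits with a median of 0.22, and -0.31 in the longest. Spearman's rho between log2 fold change and transcript length was -0.55 over the 38 subunits and -0.42 over 9820 genes, given as a description, since genes of a library share its depth and RNA. In knockout replicate 4, rho between a gene's deviation and its length was -0.54 over the subunits and -0.48 over all genes. Over the subunits it was -0.06 and -0.064 in knockout replicates 1 and 5, and 0.50, 0.40 and 0.24 in control replicates 6, 8 and 9. Over all genes it was -0.058 and -0.17 in knockout replicates 1 and 5, and 0.30, 0.30 and 0.34 in the controls, so the 3 controls had a trend of the other sign. After the length and GC correction the core minus cap difference of median deviations was 0.042, 0.12 and 0.011 in knockout replicates 1, 4 and 5 and -0.11, -0.051 and -0.082 in control replicates 6, 8 and 9 on the log2 scale. Before the correction the knockout values were 0.028, 0.25 and 0.077 and the control values -0.20, -0.0094 and -0.12, so the corrected difference was smaller and the groups still did not overlap. Taken alone, the corrected core medians overlapped, at 0.023, 0.032 and -0.027 in knockout and 0.070, 0.052 and -0.17 in control libraries. The corrected cap medians also overlapped, at -0.019, -0.091 and -0.038 in knockout and 0.18, 0.10 and -0.083 in control libraries. Corrected beta medians were 0.022, 0.037 and 0.076 in knockout and 0.13, 0.051 and -0.19 in control libraries. Corrected alpha medians were 0.023, 0.027 and -0.095 in knockout and 0.015, 0.054 and -0.014 in control libraries. Beta exceeded alpha by more in control replicate 6 than in knockout replicates 1 and 4, so this corrected difference overlapped between the groups.

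**Figure D3:**
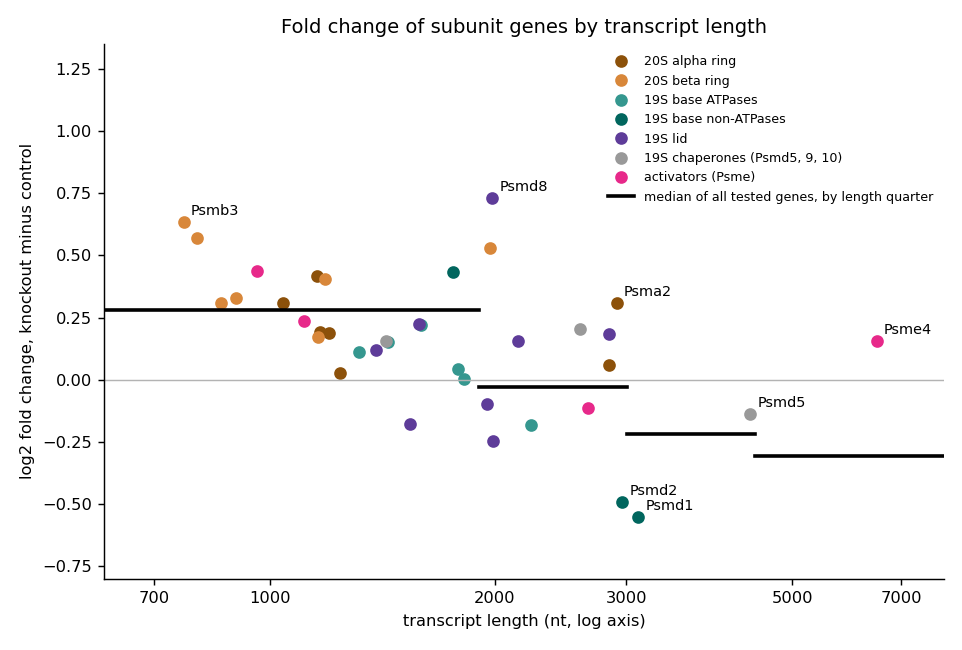
Log2 fold change of each subunit gene, knockout minus control, against the length of its transcript in nt (log axis), coloured by subcomplex, with black lines for the median of all tested genes in each of 4 equal groups by length. Beta subunits lie above 0, as does the median of the shortest group, and Psmd1 and Psmd2 lie below 0 at 3112 and 2961 nt.

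Knockout replicate 4 was the highest library for 27 of 38 subunits and for 14 of 14 core subunits, and control replicate 9 was the lowest for 26 of 38. The median deviation of beta subunits was 0.57 in knockout replicate 4 and -0.39 in control replicate 9, and from -0.13 to 0.088 in the other 4 libraries. Psmd1, Psmd2 and Psmd4, the base non-ATPases, had a median of -0.75 in knockout replicate 4. After the correction the beta value of knockout replicate 4 was 0.037 and that of the base non-ATPases -0.50. Core genes varied together across libraries: Pearson's r between pairs of the 14 core genes over 6 libraries had a median of 0.81, and 0.56 without knockout replicate 4, against 0.30 and 0.42 for the 17 cap genes. These are descriptions over libraries that share depth and length trends.

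**Figure D4:**
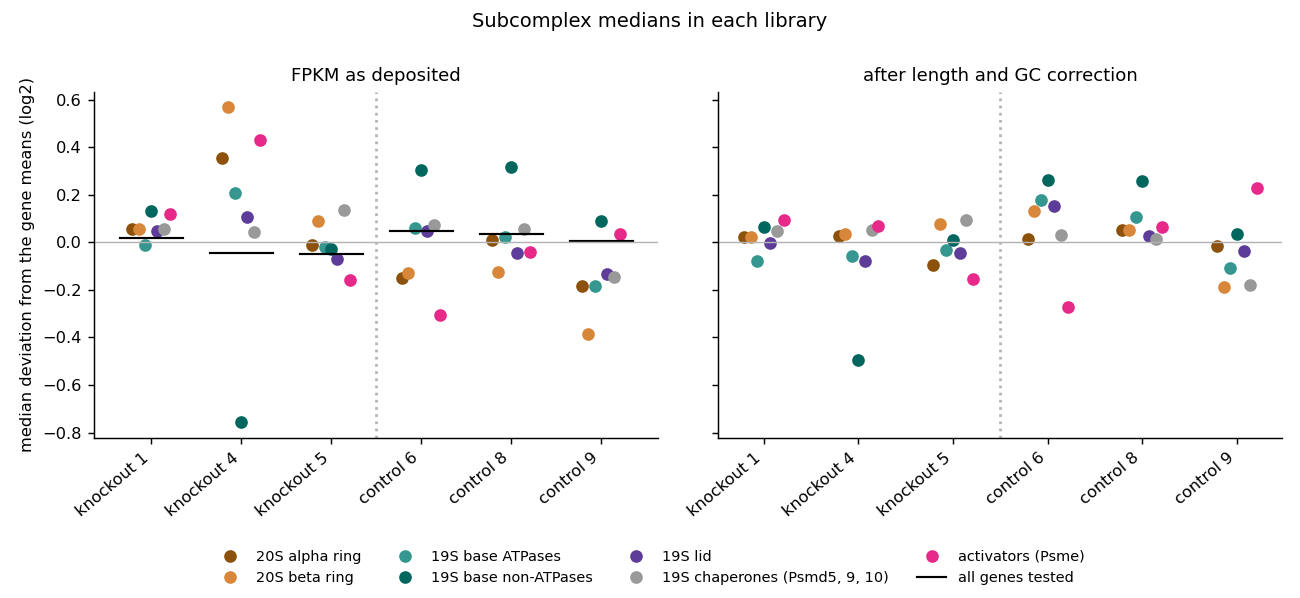
Median deviation from the gene means (log2) of each proteasome subcomplex in 3 knockout (left) and 3 control libraries, as deposited and with length and GC trends taken out. Black lines, in the as-deposited panel only, give the median of all tested genes. Core and activator points of knockout replicate 4 stand above the rest before the correction and near 0 after it, while the base non-ATPases stay lowest in that library.

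The immunoproteasome subunits Psmb8, Psmb9 and Psmb10 replace Psmb5, Psmb6 and Psmb7 in immune cells and under interferon, and their differences had unlike signs. None passed. Psmb9 was at 21.9, 41.0 and 21.8 FPKM in knockout and 7.87, 9.59 and 17.5 FPKM in control libraries (log2 fold change 1.22, SE 0.34, adjusted p = 0.0847), and Psmb8 at 116, 230.4 and 155 FPKM in knockout and 83.9, 113 and 105 FPKM in control libraries (log2 fold change 0.68, SE 0.27, adjusted p = 0.147). For both genes every knockout library was above every control library. Psmb10 was at 24.4, 44.3 and 30.1 FPKM in knockout and 52.4, 50.6 and 27.5 FPKM in control libraries (log2 fold change -0.38, SE 0.31, adjusted p = 0.430), with a fold change of the other sign. Relative to the constitutive partner, Psmb8/Psmb5 was 0.590, 0.709 and 0.642 in knockout and 0.388, 0.512 and 0.652 in control libraries. For Psmb9/Psmb6 the ratio was 0.0529, 0.0698 and 0.0639 in knockout and 0.0257, 0.0313 and 0.0648 in control libraries, and for Psmb10/Psmb7 0.228, 0.321 and 0.233 in knockout and 0.439, 0.411 and 0.306 in control libraries. All 3 ratios overlapped between the groups, each through control replicate 9, and each was below 1, so transcripts of the constitutive partner were the more abundant per length in all 6 libraries.

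**Figure D5:**
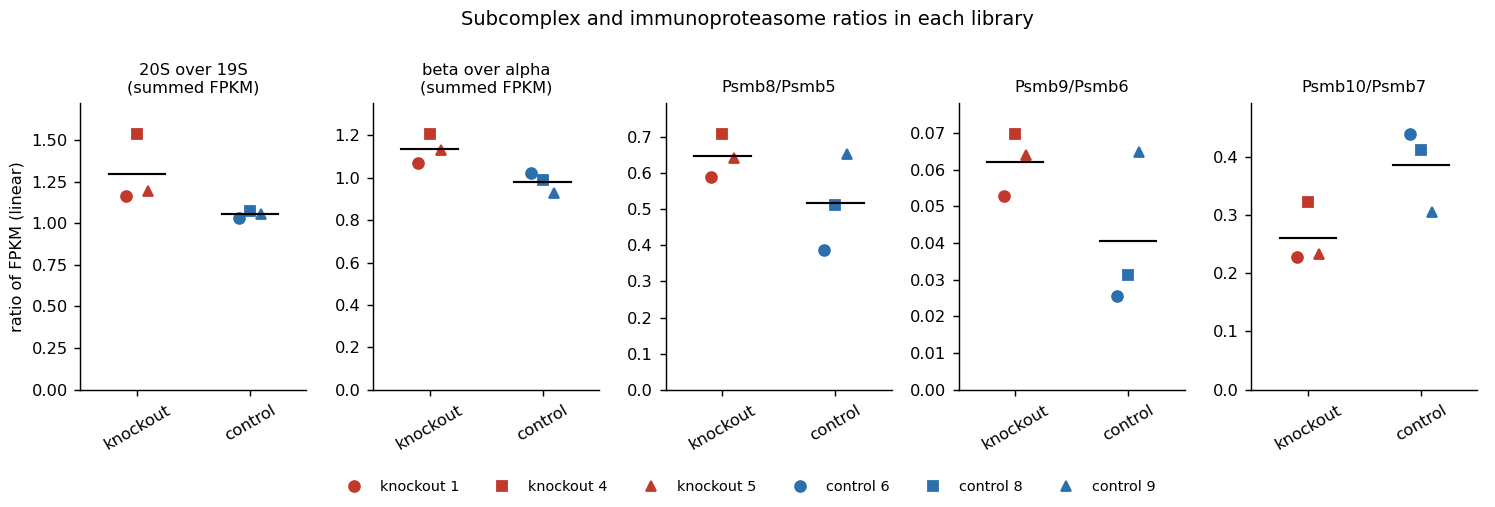
Ratios of FPKM (linear axis from 0) in each library for core over cap, beta over alpha and 3 pairs of immunoproteasome and constitutive subunits, with the mean of each group as a line. Knockout libraries lie above controls for both ratios of sums, and control replicate 9 (blue triangles) lies in or near the knockout range for the 3 pairs.

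Among genes that work with the proteasome, in 6 lists, none passed the test. Over all genes 1.9% passed and 46% had a log2 fold change above 0, so 0 passing in lists this short does not set them apart. Of 12 subunits and partners outside the members, 0 passed, 7 were above 0 and the median was 0.13. Sem1, a small lid subunit, was at 151, 301 and 249.95 FPKM in knockout and 155, 95.9 and 84.8 FPKM in control libraries (log2 fold change 1.05, SE 0.31, adjusted p = 0.0945), with control replicate 6 above knockout replicate 1. Usp14, a deubiquitinase on the base, was at 137, 102 and 148 FPKM in knockout and 186, 203 and 160.3 FPKM in control libraries (log2 fold change -0.51, SE 0.21, adjusted p = 0.154), with every knockout library below the controls. Of 5 assembly chaperones tested, 0 passed and 3 were above 0. Pomp, which starts core maturation, was at 289, 429 and 324 FPKM in knockout and 369, 251 and 228 FPKM in control libraries, and Psmg1, which builds the alpha ring, at 66.7, 92.3 and 62.9 FPKM in knockout and 63.9, 52.8 and 41.1 FPKM in control libraries. The groups overlapped for both.

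Upstream of the proteasome, 0 of 6 ubiquitin and E1 genes passed, with 4 above 0. Ubb, a polyubiquitin gene, was at 3192, 2991 and 1986 FPKM in knockout and 1371, 1541 and 1862 FPKM in control libraries (log2 fold change 0.76, SE 0.29, adjusted p = 0.144), and every knockout library was above the controls. Rps27a, a ubiquitin fusion with a ribosomal protein, averaged 730.2 ± 220.3 FPKM in knockout and 589 ± 47.1 FPKM in control libraries (SD, n = 3 each). Of 13 shuttle receptor and p97 genes, 0 passed and 8 were above 0. Vcp, the p97 unfoldase, was at 127, 91.8 and 165 FPKM in knockout and 236, 223 and 164 FPKM in control libraries (log2 fold change -0.72, SE 0.26, adjusted p = 0.125), while the p97 cofactor Ubxn1 was at 214, 297 and 141 FPKM in knockout and 83.8, 103 and 132 FPKM in control libraries (log2 fold change 0.98, SE 0.29, adjusted p = 0.0949). Vcp and Ubxn1 thus lay on opposite sides of 0.

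Of 11 genes listed around NRF1, which include Nfe2l2, Keap1 and Bach1, 0 passed and 4 were above 0, with a median of -0.13. Nfe2l1, named here for its role after its values were seen, was at 39.3, 29.0 and 33.9 FPKM in knockout and 28.3, 22.0 and 40.1 FPKM in control libraries (log2 fold change 0.20, SE 0.25, adjusted p = 0.605). Mafg, a small MAF partner of NRF1, was at 55.7, 58.5 and 46.1 FPKM in knockout and 28.0, 32.8 and 26.8 FPKM in control libraries (log2 fold change 0.85, SE 0.19, adjusted p = 0.0565), with every knockout library above the controls. It passed after the length and GC correction, at 0.99 (limma adjusted p = 0.0455), as did 173 of 9820 genes. No gene of the other lists passed after that correction. Usp14 then stood at -0.086, Ubb at 0.44, Ubxn1 at 0.58, Psmb8 at 0.36 and Psmb9 at 0.84, each a smaller difference than before, while Sem1 changed little, at 1.07. Sel1l, of the ubiquitin ligase complex that handles NRF1 at the endoplasmic reticulum, was at 36.9, 12.6 and 51.9 FPKM in knockout and 61.8, 55.7 and 62.4 FPKM in control libraries (log2 fold change -1.02, SE 0.43, adjusted p = 0.171). Of 8 aggregate handling and autophagy receptor genes tested, 0 passed and 5 were above 0. Sqstm1, the receptor p62, was at 127, 184 and 232 FPKM in knockout and 71.7, 91.6 and 94.974 FPKM in control libraries without overlap (log2 fold change 1.03, SE 0.25, adjusted p = 0.0675), and Stub1, a ubiquitin ligase of chaperones, averaged 155 ± 22.5 FPKM in knockout and 154 ± 19.047 FPKM in control libraries (SD, n = 3 each).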

How the data were processed

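Bulk RNA was sequenced from 3 Clec12a knockout and 3 lacZ control libraries. FPKM values per gene were made and deposited by the authors; FastQC, STAR 2.5.2b and the mm10 genome are named in the submitters' processing notes, and the counting tool, its strand setting and the annotation are not stated in these sources. The table holds no counts. Depth was estimated from steps between low FPKM values, but only 62.8% to 69.8% of low values came within 0.1 of a whole read, so no count test was run.

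Genes with an FPKM of 1 or more in at least 3 of 6 libraries (9830) were tested two-sided with limma 3.58.1 (R 4.3.3, trended prior) on log2(FPKM + 1), with Benjamini-Hochberg adjustment over all of them and a threshold of 0.05. Fold changes are on that scale, which understates those of low genes. SE, intervals and p-values in the report come from this fit. The script was tested on simulated data. Lengths, coordinates and overlaps came from GENCODE M21 (GRCm38), near-identical copies from an alignment of transcripts at 95% identity or more over at least 200 nt, and promoter sequences from RefSeq. Length and GC trends were taken out of each library with splines of 4 degrees of freedom. The 18 alternatives tried are in the closing section.

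Per-library values were given for the members with the lowest p in each direction, the extremes of each subcomplex, the catalytic and Psme genes, and the 2 highest genes of each other list. Members and lists were chosen with earlier results of these data known.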

Additional observations from a re-analysis of the deposited data

How the results depend on the processing

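In 18 alternative settings, 0 of 38 subunits passed except with array weights (8) and at a threshold of 0.1 on the adjusted p (1, Psmd8). Of all genes, 42.3% passed with array weights and 11.3% at the threshold of 0.1. The median log2 fold change of the 38 was 0.025 with quantile normalization, -0.019 with equal totals (16 above 0), 0.026 with array weights and -0.044 with length and GC trends taken out (17 above 0). Over all genes the medians in these settings were -0.036, -0.24 (3271 of 9830 above 0), -0.039 and -0.055 (4433 of 9820 above 0). With equal totals the log2 ratio of summed FPKM was 0.15 for the core, -0.14 for the cap and 0.016 for all 38. Scaling by median ratios gave a median of 0.24 with 30 above 0. Among 14 subunits followed through the settings, directions turned with equal totals for Psmb7 (-0.029) and Psme4 (-0.012), and with array weights for Psmb5 (-0.042), Psmb7 (-0.10), Psme1 (-0.073), Psme3 (0.72) and Psme4 (-0.20). With length and GC trends taken out 17 of 38 turned, 15 of them to below 0; among the 14 these were Psmb5 (-0.21), Psmb7 (-0.15), Psme1 (-0.21) and Psme2 (-0.012). Leaving out 1 library at a time gave -0.67 to 0.47 for Psme3 and -0.041 to 0.33 for Psme4. The cause was not tested. Psme4 has no value at a mean FPKM of at least 5. Over the settings the adjusted p of Psmd8 was 0.00318 to 0.273, lowest with array weights and highest without control replicate 8. No paired analysis was possible because the groups share no replicate number. With 3 libraries a group, and no counts, small differences are beyond reach.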

Other observations

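Psmd8 lies on chromosome 7 among 7 other tested genes within 250 kb on either side, of which 4 had a positive and 3 a negative log2 fold change, with a median of 0.31, and 0 passed the test. For 3 of the 7 every knockout library was above every control library, an order that 14.5% of all genes had, and for 1, Sipa1l3, every knockout library was below, as for 21.8% of all genes. Eif3k, a translation initiation factor subunit, was at 359, 622 and 355 FPKM in knockout and 276, 285 and 282 FPKM in control libraries (log2 fold change 0.61). Yif1b, a membrane traffic protein, had a log2 fold change of 0.49 and Dpf1, a chromatin remodelling subunit, of 0.57. The negative log2 fold changes were -0.43 for Sipa1l3, -0.33 for Actn4 and -0.072 for Map4k1. Dpf1 and Sipa1l3 were low, at no more than 4.28 and 1.98 FPKM in any library. These neighbours were looked up after the values of Psmd8 had been seen. The 38 subunit genes lie on 15 chromosomes.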
